A study of Homo sapiens with 5 samples.

Results

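The 8p11 block is a stretch of 3 Mb on the short arm of human chromosome 8, around the gene FGFR1, in which ZBTB7A peaks crowd together in cells grown in full serum. Its members are all ChIP-seq peaks with a summit between 37000000 and 40000000 on hg19: 50 of 37782 peaks in the CSS list, 43 of 34120 in the DHT list and 225 of 124868 in the FBS list, 318 of 196770 in all. The stretch was chosen by FBS and CSS peak counts seen in these same lists, so counts that compare these lists describe the choice and are not tested.

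The cells were VCaP, an established line from a prostate cancer, with an active androgen receptor and the TMPRSS2-ERG fusion, and all 5 libraries were made with the same antibody to ZBTB7A. CSS stands for medium with 5% hormone-depleted serum and vehicle for 4 hours (2 libraries), and DHT for the same medium with 10 nM of the androgen dihydrotestosterone for 4 hours (2 libraries). FBS stands for routine culture in 10% full serum (1 library). The FBS library carries a treatment label identical to that of the others, so the absence of added DHT was read from its culture label and the stated design. Only 1 peak list stands for each condition. There is therefore no spread between replicates and no test between conditions, and every interval below is a 95% interval that covers counting error only.

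ZBTB7A (LRF, Pokemon) is a BTB-domain transcription factor that binds DNA through zinc fingers, often recruits corepressors, and is also known for binding many active promoters. FGFR1 encodes a receptor tyrosine kinase for fibroblast growth factors, and the region around it is known for being gained or amplified in several carcinomas. The protein-coding neighbours of FGFR1 in the RefSeq order of GRCh38.p14 are LETM2, NSD3, PLPP5, DDHD2 and BAG4 on the side of lower coordinates, and TACC1, PLEKHA2, HTRA4, TM2D2 and ADAM9 on the other. NSD3 encodes a histone methyltransferase, TACC1 a coiled-coil protein of the centrosome and ADAM9 a membrane metalloprotease. Only the extent of FGFR1 was used on hg19, and peaks elsewhere are named by their coordinates alone.

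The block was richest in peaks in full serum, mainly in its middle part. FBS peaks stood at 75 per Mb (65.5 to 85.5) in the block and 21.3 per Mb on the rest of the short arm, a ratio of 3.51 (3.02 to 4.07). CSS peaks stood at 16.7 per Mb (12.4 to 21.97) against 9.93, a ratio of 1.68 (1.23 to 2.26). DHT peaks stood at 14.3 per Mb (10.4 to 19.3) against 9.51, a ratio of 1.51 (1.07 to 2.07). All 3 lists were thus denser in the block than on the rest of the arm, FBS most of all. At a −log10 q of 10 or more, the density ratio was 16.7 (9.16 to 30.8) for FBS. It was 1.34 (0.473 to 3.08) for CSS and 2.12 (0.805 to 4.73) for DHT. The block was chosen by FBS and CSS counts, and its FBS peaks lie close together, so these intervals are not a test. The q-value ranks peaks within a list only, so this cut is not the same in each list. At a fold between 3 and 4, FBS peaks had a median −log10 q of 3.57 in the block and 2.84 on the rest of the arm. The part of this difference in the FBS ratio was not tested. With limits 500 kb wider on each side, the DHT ratio was 1.19 (0.856 to 1.62).

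Between 38 and 39 Mb there were 154 FBS, 21 CSS and 25 DHT peaks. The megabase below it held 58, 17 and 12, and the megabase above it 13, 12 and 6. Over the 44 windows of 1 Mb on the arm, the window from 38 to 39 Mb held the most FBS peaks and the one from 37 to 38 Mb came next, while outside the block no window held more than 56. For CSS and DHT the window from 38 to 39 Mb was the third fullest, in CSS level with the one from 42 to 43 Mb. The CSS maximum, 24 peaks, lay from 0 to 1 Mb, and the DHT maximum, 30 peaks, from 42 to 43 Mb. As a share of its list, the block held 1.36 times as much of the FBS list as of the CSS list (0.998 to 1.89), 2.22 times between 38 and 39 Mb (1.40 to 3.69) and 0.741 times in the rest of the block (0.475 to 1.18). The ratio on the rest of the short arm was 0.651 (0.578 to 0.734). With 1 peak kept per 10 kb, the strongest by −log10 q, the ratio for the whole block was 1.03 (0.709 to 1.53).

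The FBS profile climbed gradually and ended abruptly. Windows of 100 kb held between 4 and 8 FBS peaks from 37 to 38 Mb, and between 10 and 25 from 38 to 39 Mb. The fullest, from 38.8 to 38.9 Mb, held 25 FBS, 2 CSS and 2 DHT peaks. The last window before 39 Mb still held 17 FBS peaks and the next one 3. The 500 kb below 39 Mb held 87 FBS peaks and the 500 kb above it 6, a ratio of 14.5 (6.40 to 40.6). With 1 peak kept per 10 kb, the strongest by −log10 q, it was 7 (2.45 to 27.5). CSS had 11 and 8 (1.38, 0.504 to 3.94) and DHT 12 and 4 (3, 0.909 to 12.8), so neither of their intervals excluded an even distribution. This position was chosen after the profile was seen.

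**Figure D1:**
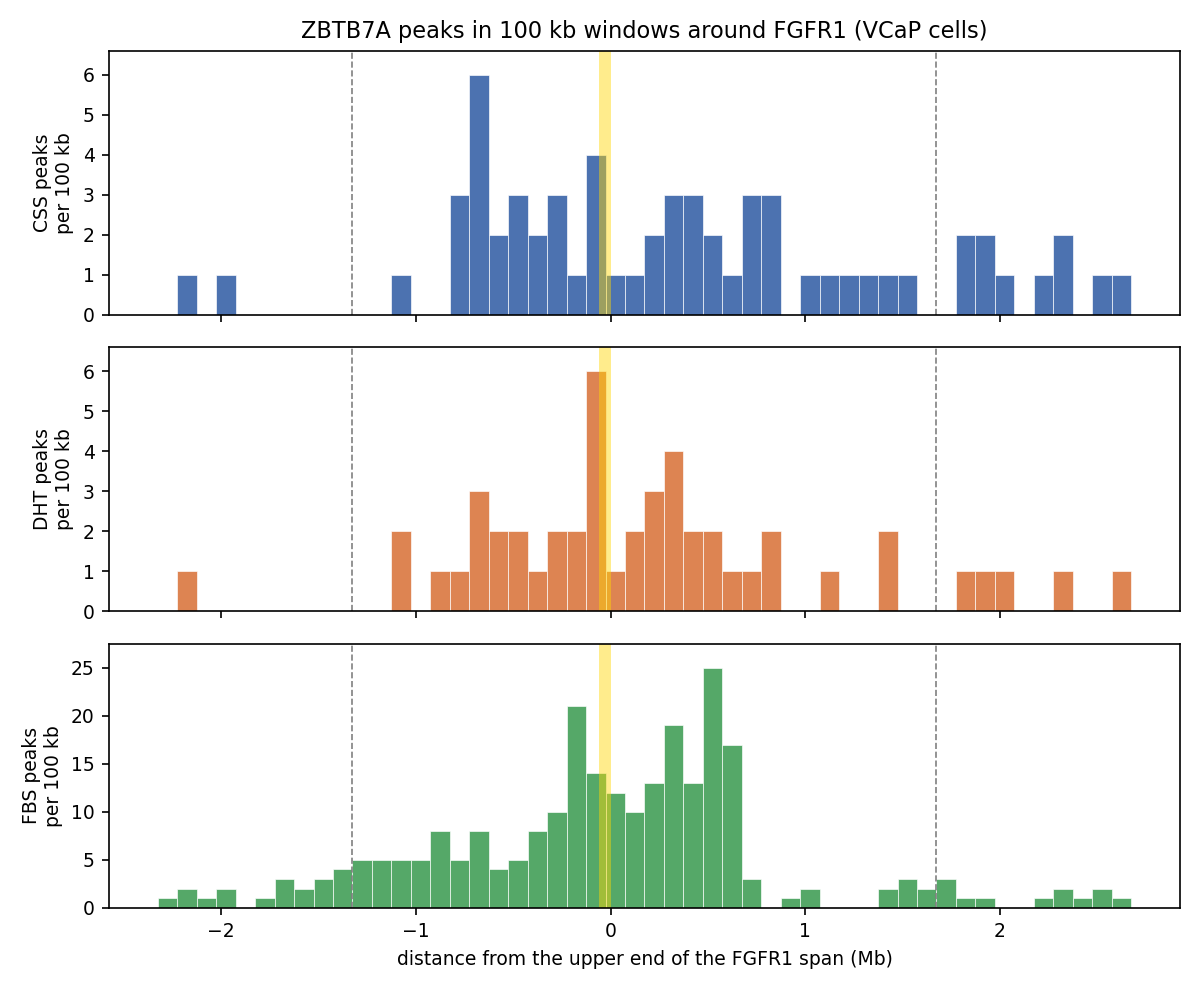
Peaks per 100 kb window in the CSS, DHT and FBS lists, against the distance of the window from the upper end of the FGFR1 span in Mb. Dashed lines mark the limits of the block and the shaded strip is FGFR1. The vertical axes differ: the fullest window of the block holds 6 peaks in CSS, 6 in DHT and 25 in FBS, and the FBS counts drop from 17 to 3 between adjoining windows on the right.

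FBS peaks of the block also lay close together. The median gap between neighbouring FBS summits was 6.96 kb, against 38.89 kb for CSS and 45.0 kb for DHT. Of the 225 FBS peaks, 189 (84.0%, 78.5 to 88.5%) had another FBS peak within 10 kb, against 68.9% of the whole FBS list and 47.9% on the rest of the arm. For CSS it was 18 of 50 peaks (36%, 22.9 to 50.8%) against 34.8% of its list, and for DHT 10 of 43 (23.3%, 11.8 to 38.6%) against 32.5%. Spacing in CSS and DHT was thus near that of their lists. Chains of 5 or more FBS peaks with gaps of at most 10 kb numbered 11 and took in 131 of the peaks. The longest held 34 peaks over 144 kb, from 38107523 to 38251192, and it ended below FGFR1. No chain in CSS or DHT exceeded 4 peaks, and in both lists the longest lay inside that same FBS chain, near 38.24 Mb. With 50 and 43 peaks, these lists had fewer to chain. Chains were counted in the block only, so no share of the whole list or the rest of the arm stands beside them.

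How many reads stood behind these peaks was recovered from the deposited values. MACS2 writes for each peak a fold enrichment and a p-value that both follow from the number of fragments stacked at the summit and a local background rate, so the pair could be solved for both numbers. A whole number of fragments was found for 100% of peaks in each list. The background was either the list's genome-wide mean or a whole number of reads in 10 kb, and is given here as reads per 10 kb. The mean was 13.4 reads per 10 kb in CSS, 9.69 in DHT and 60.2 in FBS, so the FBS list rested on 4.51 times as many reads as CSS and 6.21 times as many as DHT, if the same genome size was set for all. FBS peaks were 4.5 times as many as CSS peaks in the block and 2.15 times as many on the rest of the arm, and the part of depth in these numbers was not tested. All read densities and depth ratios here assume that the background was counted in the ChIP library itself. The sources used here do not say whether a control library entered. A peak of the block had a median of 8 fragments at its summit in CSS (4 to 30), 9 in DHT (4 to 21) and 16 in FBS (7 to 55). Differences of a few fragments therefore decide whether a weak CSS or DHT peak is listed at all.

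Over the whole block, peaks sat in surroundings richer in reads than on the rest of the arm. Relative to the list's mean, the 10 kb around a block peak held a median of 2.28 times the reads in CSS, 2.89 times in DHT and 2.26 times in FBS. On the rest of the short arm the medians were 1.498, 1.86 and 1.11. At least 2 times the mean was reached by 132 of 225 FBS peaks (58.7%, 51.9 to 65.2%), against 23.2% of the FBS list and 12.9% on the rest of the arm. In CSS it was reached by 28 of 50 (56.0%, 41.3 to 70.0%), against 47.0% of the list and 32.3% on the rest of the arm, and in DHT by 29 of 43 (67.4%, 51.5 to 80.9%), against 53.6% and 46.1%. The FBS share thus exceeded that of its list, while the CSS and DHT intervals both include the share of the whole list. The block was not uniform: from 39 to 40 Mb the medians were 1 in CSS and FBS and 1.19 in DHT. All 3 were below those of the rest of the arm. On the arm, the window from 43 to 44 Mb had the highest median in CSS (10.3) and DHT (7.12), above every window of the block. Reads at the peak itself are part of this count, peaks less than 10 kb apart share reads, and no value is available between peaks.

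Along the block, read density around the peaks was uneven, and in FBS it came down before the peak number did. In the lowest 500 kb, 6 of 28 FBS peaks had surroundings of at least 2 times the mean. From the lower end of FGFR1 to 38.9 Mb, 84 of 93 did and none was at the floor set by the mean. The median over that stretch was 3.06 times the mean in FBS, 4.34 in CSS and 3.30 in DHT. The last FBS peak with such surroundings lay from 38894647 to 38894873. Above 38.9 Mb none of 30 FBS peaks and none of 13 CSS peaks reached 2 times the mean, whereas 2 of 7 DHT peaks did, with at most 2.58. The cut at 38.9 Mb lies just above that last FBS peak, so the FBS count follows from where the cut was placed. Of the 17 FBS peaks in the last window before 39 Mb, 10 were at the floor and none exceeded 1.68 times the mean. The read density around FBS peaks thus came down about 100 kb before the number of FBS peaks did, with both positions read from these same data.

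**Figure D2:**
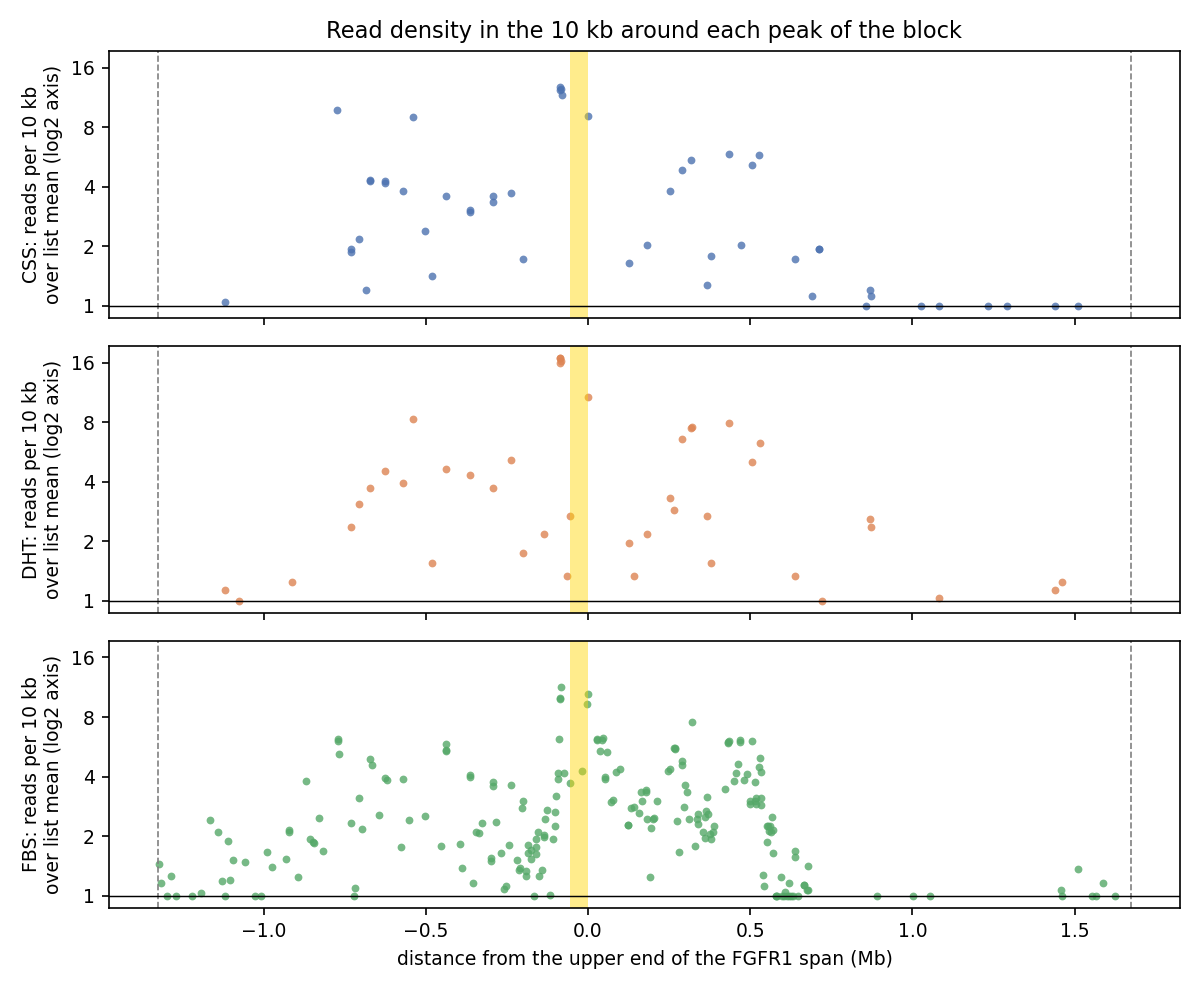
Reads in the 10 kb around each peak of the block, divided by the list's mean, on a log2 axis, against the distance from the upper end of the FGFR1 span in Mb. Each point is a peak, the horizontal line at 1 is the mean, below which no value can fall, dashed lines are the limits of the block, and the shaded strip is FGFR1. Points are uneven along the block, and no FBS or CSS point in the right-hand stretch, above 38.9 Mb, reaches 2, with maxima over the block of 12.7 (CSS), 16.9 (DHT) and 11.4 (FBS).

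The densest place of the block in every list was a pair of sites near 38.24 Mb, below FGFR1. CSS had 4 peaks there from 38239452 to 38244682, with 155 to 170 reads in their 10 kb, or 11.6 to 12.7 times the mean. DHT had 4, from 38239456 to 38244207, with 154 to 164 reads, or 15.9 to 16.9 times its mean. FBS had 3 peaks that overlapped them, with 595, 598 and 686 reads, or 9.89, 9.94 and 11.4 times its mean. The fold enrichment of these peaks was modest, from 4.53 to 5.81 (CSS), 4.24 to 5.43 (DHT) and 3.37 to 4.06 (FBS). If the background came from the ChIP library itself, it includes the reads of the sites. The summits held 18 to 23 fragments in CSS, 17 to 21 in DHT and 48 to 55 in FBS.

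FGFR1 had a peak at its promoter end in all 3 lists. The gene spans 38.269 to 38.326 Mb, rounded to 1 kb, and is transcribed toward lower coordinates, so that its start lies at the upper end. The peak there ran from 38325243 to 38326224 in CSS, from 38325060 to 38326338 in DHT and from 38324826 to 38326305 in FBS. Its width was 982, 1279 and 1480 bp, the widest of the block in DHT and FBS. At its summit there were 19 fragments in CSS, 14 in DHT and 51 in FBS. Its surroundings held 122, 104 and 626 reads per 10 kb, or 9.14, 10.7 and 10.4 times the mean, so the lists resembled each other in this measure. By the authors' −log10 q the peak stood at percentile 79.9 of the CSS list (8.58), 49.3 of the DHT list (5.14) and 96.4 of the FBS list (11.1). The fold enrichment was 6.01, 4.90 and 3.60.

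Within the gene the lists differed in their number of summits. Over 38 to 39 Mb they also differed, with 154 FBS, 21 CSS and 25 DHT peaks. The part of this in the counts within the gene was not tested. FBS had 4 summits in the span. They lay at the promoter end, 2.245 kb inside it (38323567 to 38324054, 40 fragments), in the body of the gene (38307045 to 38307340, 24 fragments) and at the far end (38269455 to 38269951, 20 fragments). DHT had 2, at the promoter end and near the far end from 38271024 to 38271251, where 7 fragments were stacked. The DHT peak at the far end was 1.51 kb from the nearest FBS summit and 26.7 kb from the nearest CSS summit. CSS had none beside the promoter peak, whose summit fell 54 bp above the rounded end of the gene. With 57 kb on each side, there were 11 FBS, 4 CSS and 5 DHT summits below the gene and 7, 1 and 0 above it. The 1 CSS summit above is that of the promoter peak.

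Merging overlapping peaks gave 246 regions in the block. A peak in all 3 lists was present at 22 of them, in CSS and DHT at 9, in CSS and FBS at 3, and in DHT and FBS at 4. FBS alone accounted for 192 (78.0%), CSS alone for 11 (4.47%) and DHT alone for 5 (2.03%). Over all 151256 regions of the 3 lists, the shares were 68.4%, 7.57% and 5.10%, and 7.67% were in every list, against 8.94% in the block. For each pair of lists, the share over all regions was not computed, so the counts of 9, 3 and 4 show nothing particular to the block. Of the 22 regions of all lists, 8 lay between 37 and 38 Mb and 14 between 38 and 39 Mb. None of the 25 regions from 39 to 40 Mb was in all 3 lists.

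Among the shared regions, the 5 with the best median rank by −log10 q began at 38758731, 38088791, 37619741, 38614284 and 38854183. At the leading one (38758731 to 38759638) the summit held 21 fragments in CSS, 21 in DHT and 39 in FBS, with fold enrichments of 8.84, 8.71 and 4.52, and it stood at percentiles 93.4, 95.9 and 96.8 of its lists. At 38614284 to 38615416 the summits held 17, 18 and 41 fragments. The region at 37619741 to 37620647 differed more between lists: it stood at percentile 51.8 in CSS (8 fragments, fold 5.79), 92.9 in DHT (14 fragments, fold 9.41) and 96.5 in FBS (28 fragments, fold 5.75). The region at 38088791 to 38089712 likewise had 11 fragments in CSS and 17 in DHT, from surroundings of 50 reads in both. Such counts are small, and without replicates no difference between CSS and DHT is shown at these sites.

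Across shared regions, the order by reads per 10 kb was more alike between lists than the order by fold enrichment. Spearman's rho of the reads per 10 kb was 0.928 for CSS with DHT (31 regions), 0.943 for CSS with FBS (25) and 0.900 for DHT with FBS (26). For fold enrichment the values were 0.396, 0.336 and 0.154. For −log10 q they were 0.454, 0.808 and 0.361, so CSS and FBS were more alike by q-value than by fold. These are descriptions over sites of the same cell line, which share their position and base composition in every list. Set against the mean coverage of its own list, the summit of a shared region stood at a median of 39.2 times the mean in CSS (23.5 to 90.2), 62.6 times in DHT (20.9 to 109) and 21.6 times in FBS (7.73 to 42.5). FBS was the lowest of the lists by this measure at 22 of 22 regions. The block peaks with fewest fragments, 4 in CSS and DHT and 7 in FBS, stood at 15.7, 20.9 and 5.41 times the mean. A listed summit thus starts at a higher multiple in CSS and DHT, and this order cannot be told apart from depth. Between the peaks of highest −log10 q in each region, the median summit distance was 89 bp for CSS with DHT. It was 181 bp for CSS with FBS and 130 bp for DHT with FBS. Where a list had more than 1 peak in a region, a nearer summit was not used.

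The strongest CSS peak of the block was not called in full serum, whereas the strongest DHT peak (38758799 to 38759401) was called in every list. The CSS peak ran from 37784737 to 37785786, with 30 fragments and a fold enrichment of 9.36. Its −log10 q of 19.1 was the highest of the 50 CSS peaks, and rank 970 of the CSS list. DHT had this peak from 37784692 to 37785681, with 21 fragments, a fold of 8.51 and a −log10 q of 13.0, the second-highest DHT value in the block. The nearest FBS summit was 11.2 kb away. Surroundings were dense, at 9.06 times the mean in CSS and 8.26 times in DHT. Another of the 9 regions called in CSS and DHT only lay from 38577227 to 38577741, where CSS had 16 fragments (fold 8.61) and DHT 8 (fold 5.51), and the nearest FBS summit was 1.48 kb away. The other CSS leaders, near 38.759, 38.832 and 38.615 Mb, were called in every list.

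The 3 strongest FBS peaks of the block, in turn, were called in full serum only, and the next 2 in all lists. The leader ran from 38175368 to 38175737 and had a fold enrichment of 10.6 and a −log10 q of 19.7, rank 751 of the FBS list. It was sharp: 27 fragments stood at its summit among only 76 reads in 10 kb, and the nearest summits were 48.7 kb away in CSS and 15.7 kb in DHT. The next, from 38860347 to 38860644, had 35 fragments, a fold of 7.66 and a −log10 q of 18.2, and the nearest summits were 5.92 kb away in CSS and 5.52 kb in DHT. The third, from 38853600 to 38854063, had 41 fragments, a fold of 6.21 and a −log10 q of 17.3, but its summit was only 0.710 kb from a CSS summit. In the whole block 192 FBS peaks (85.3%) had no partner in CSS or DHT, against 82.8% of the FBS list. Of these, 14 (7.29%) had a −log10 q of at least 10, against 1.96% of all unpartnered FBS peaks and 13 of the 33 partnered FBS peaks of the block. The median percentile in the FBS list was 57.0 for the unpartnered and 87.7 for the partnered FBS peaks of the block.

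In CSS and DHT too, peaks without a partner ranked lower than those with one. The 11 CSS-only peaks had a −log10 q of at most 6.52 and a median percentile of 27.9 in their list, against 52.5 for the 39 CSS peaks with a partner in either list. The CSS leader of this kind (37553121 to 37553450) had 17 fragments in surroundings 9.74 times the mean. An FBS summit lay 0.898 kb from it without overlap. The others ran from 39181403 to 39181642 (7 fragments) and from 39037965 to 39038198 (8 fragments). The 5 DHT-only peaks had a median percentile of 10.9, against 65.1 for the 38 with a partner, and the leader (37251010 to 37251247) had 7 fragments and a −log10 q of 7.01. Next came the peak at the far end of FGFR1 described above, and one of 4 fragments from 39047393 to 39047590.

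By an overlap of at least 1 bp, most CSS and DHT peaks of the block had a partner in the other of these lists, but with summits within 100 bp required the shares were 38% and 44.2%. Of the CSS peaks of the block, 33 of 50 (66.0%, 51.2 to 78.8%) shared at least 1 bp with a DHT peak, against 56.8% of the CSS list and 54.8% on the rest of the arm. Of the DHT peaks, 33 of 43 (76.7%, 61.4 to 88.2%) overlapped a CSS peak, against 63.9% of the DHT list and 58.8% on the rest of the arm. The difference from the rest of the arm was 11.2 percentage points (Newcombe interval -3.46 to 23.7) for CSS and 17.98 points (2.72 to 29.2) for DHT. The CSS interval includes 0. Among peaks at a −log10 q of 5 or more in both lists, the DHT share was 60.0%.

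An FBS partner was more frequent in the block than elsewhere on the arm. It was present for 30 of 50 CSS peaks (60.0%, 45.2 to 73.6%), against 44.1% of the CSS list and 37.04% on the rest of the arm, and for 29 of 43 DHT peaks (67.4%, 51.5 to 80.9%), against 48.2% and 39.9%. The differences from the rest of the arm were 23.0 points (8.33 to 36.2) and 27.5 points (11.8 to 40.46). FBS peaks are also 3.51 times as dense in the block, and the part of that density in the overlap was not tested. The block was chosen by its FBS and CSS counts, and that choice favours a higher share of FBS partners. These differences are therefore descriptions. With a fold of at least 5 required in both lists, 22.6% of CSS and 16.1% of DHT peaks had an FBS partner. This cut left 31 CSS, 31 DHT and 59 FBS peaks, so FBS partners of lower fold were not counted. With summits within 100 bp required, 20% of CSS and 32.6% of DHT peaks kept an FBS partner. In the other direction, 33 of 225 FBS peaks (14.7%, 10.3 to 19.98%) met a CSS or DHT peak, against 17.2% of the FBS list and 22.6% on the rest of the arm, a difference of -7.95 points (-12.9 to -2.10).

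**Figure D3:**
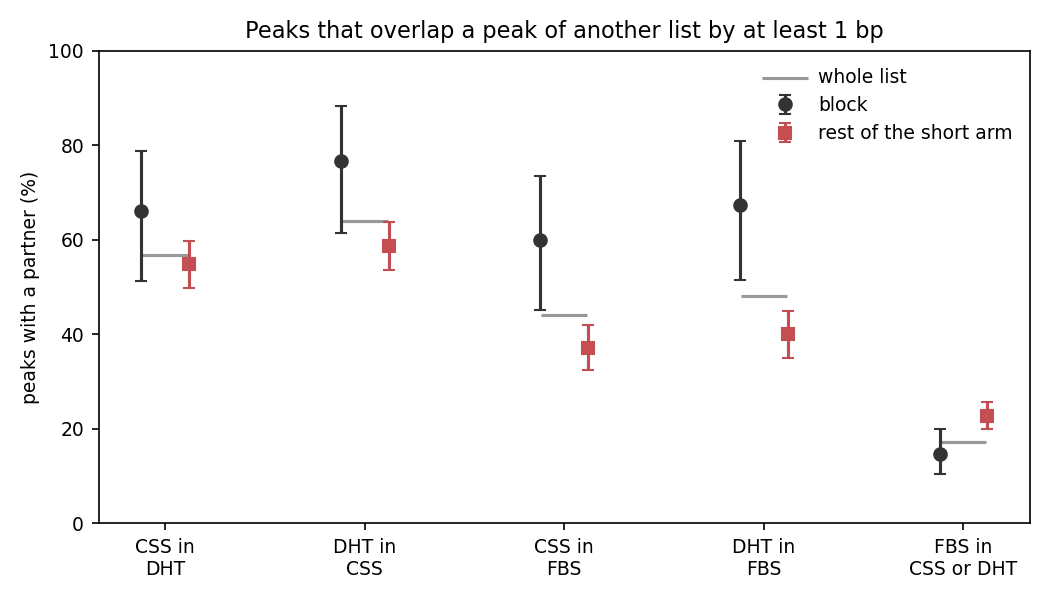
Share of peaks, in percent, that overlap a peak of the named list by at least 1 bp. Circles are the block and squares the rest of the short arm, with exact 95% intervals, and grey bars are the whole list without an interval. For CSS in FBS and DHT in FBS the block lies at 60.0% and 67.4%, above the rest of the arm at 37.04% and 39.9%, and for FBS peaks it lies below, at 14.7% against 22.6%.

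With androgen, the block's share of the list was compared with that in vehicle. The share of the DHT list divided by that of the CSS list was 0.952 (0.618 to 1.46), against 1.06 (0.921 to 1.22) on the rest of the arm. The interval allows a change in either direction. It was 1.32 (0.708 to 2.48) between 38 and 39 Mb and 0.687 (0.359 to 1.28) in the rest of the block, and both intervals include 1. A −log10 q of 10 or more was reached by 6 CSS peaks (12.0%, 4.53 to 24.3%, against 14.5% of the list) and 7 DHT peaks (16.3%, 6.81 to 30.7%, against 11.8%). The same threshold was reached by 27 FBS peaks (12.0%, 8.06 to 17.0%, against 4.92% of the FBS list and 2.53% on the rest of the arm).

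FBS peaks of the block ranked high by q-value and low by fold enrichment. Their median percentile in the FBS list was 63.4 by −log10 q and 34.5 by fold enrichment. With a fold between 3 and 4, the 82 FBS peaks of the block had a median −log10 q of 3.57 and 16 fragments at the summit, against 2.84 and 9 fragments for 235 FBS peaks of that fold on the rest of the arm. Their surroundings were at a median of 2.72 and 1.33 times the mean. At equal fold the q-value is thus smaller where more reads lie around the peak, which follows from how both are computed. The same holds in the next bin, with a fold between 4 and 5: a median −log10 q of 5.30 for 71 block peaks against 4.26 for 392 others. CSS peaks stood at median percentiles of 49.0 by −log10 q and 42.7 by fold, and DHT peaks at 64.1 and 53.4.

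**Figure D4:**
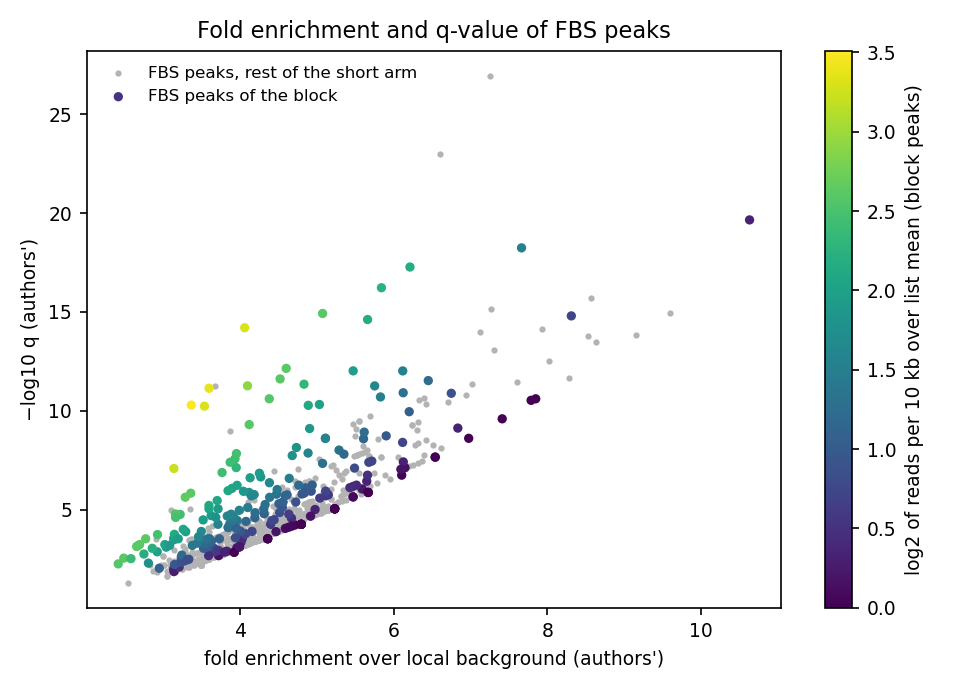
The authors' −log10 q against their fold enrichment for FBS peaks, grey for the 871 on the rest of the short arm and coloured for the 225 of the block, with the colour giving the log2 of the reads per 10 kb over the list's mean. At a fold between 3 and 4, the block peaks, whatever their surroundings, have a median −log10 q of 3.57, against 2.84 on the rest of the arm.

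The limits of the block are round positions. The 500 kb below its lower limit held 13 FBS peaks and the 500 kb above it 28. There the first FBS summits inside were 37003349 (fold 3.14) and 37010725 (5.59), and the last ones outside were 36957499 (5.67) and 36949738 (6.10). The first CSS summits inside were 37206584 and 37553296, and the last outside 36315329 and 36174545. For DHT these were 37206608 and 37251168, and 36174550 and 35568566. At the upper limit the last FBS summits inside were 39914907 and 39951489 (folds 3.99 and 4.80) and those just outside 40030919 and 40039542 (4.80 and 5.23). The CSS summits were 39765403 and 39835730 inside, and 40139691 and 40150373 outside. The DHT summits were 39765439 and 39786143, and 40150353 and 40239810.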

How the data were processed

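ZBTB7A ChIP-seq peak lists in narrowPeak format were used, 1 per condition. Both CSS libraries point to a single list in the labels, as do both DHT libraries; the way they were combined is not described. MACS2 (2.0.10.20131216), BWA (0.7.2-r351) and SAMtools (0.1.18) are listed with hg19, per the submitters' processing notes. For control library, calling threshold and duplicates, settings were not given in the sources used here. Fold enrichment is a ratio over local background deposited by the authors, and the −log10 p and −log10 q of each peak are also deposited. They describe or rank peaks within a list only.

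Fragments at the summit (n) and background (λ) were solved from fold = (n + 1)/(λ + 1) and p = P(Poisson(λ) > n), a fold within 2e-05 counting as a match. Each of the 318 peaks had 1 solution. Above the floor, 100% of backgrounds were whole reads (within 0.02) of 10 kb for fragment lengths of 191, 198 and 215 bp, and n never exceeded them. A floor value is an upper limit.

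Summits were counted by position. The short arm ended at 43838687, before the longest stretch without a peak. Intervals are Poisson, Clopper-Pearson, conditional binomial or Newcombe. Python 3.11.15, numpy 2.4.6, pandas 2.3.3 and scipy 1.17.1 were used, and the code was tested on simulated data. The named peaks were, by rule, those in or at FGFR1, the 5 highest by −log10 q per list, the 3 highest of 1 list only, the 5 best shared regions, and those next to the limits. Members and rules were chosen with earlier results of these data known.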

Additional observations from a re-analysis of the deposited data

How the results depend on the processing

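Of 117 values recomputed under other settings, 79 stayed inside the range of the reported value and 38 left it. That range is the 95% interval for ratios and shares, 1.5 times for counts, and the quartiles over peaks for median percentiles and read density, a wide range that also takes in the FBS percentile by fold (34.5 for 63.4) and the CSS read density from 38 to 39 Mb (3.82 for 2.28). No ratio whose interval excluded 1 crossed 1. Of those that included 1, DHT to CSS (0.952) became 1.26 and 1.58 at a −log10 q of 5 and 10, 1.32 from 38 to 39 Mb and 1.03 by covered bases, and CSS across 39 Mb (1.38) became 0.833 with 250 kb on each side. No paired analysis was possible because only 1 list per condition was used; leaving out a library was likewise not possible. Read density, the position at 39 Mb, thinning to 1 peak per 10 kb and the arm as reference were added after seeing the data. Thresholds leave fewer peaks and overlap rules are stricter by construction; otherwise the cause was not tested.

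At a −log10 q of at least 10, the density ratio to the rest of the arm was 2.12 for DHT and 16.7 for FBS, the share ratio was 4.02 for FBS to CSS and 1.58 for DHT to CSS, 83.3% of CSS peaks had a DHT partner, and 22.2% of FBS peaks had one in either list. At 5 or more, the density ratios were 2.09 and 5.94, 60.0% of DHT peaks had a CSS partner, and the regions numbered 12 in all lists, 4 in CSS and DHT, and 98 in FBS alone. The CSS median read density was then 4.34 times the mean. With equal numbers of top peaks, the FBS density ratio was 7.76, the share ratio of FBS to CSS 2.11, and the partner shares 51.2% for DHT in FBS and 24.7% for FBS in either. With a fold of at least 5, partner shares were 61.3% for DHT in CSS, 22.6% for CSS in FBS and 16.1% for DHT in FBS. Each threshold was applied to every list, so partners below it were not counted.

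With 38 to 39 Mb alone, the density ratio was 2.64 for DHT and 6.998 for FBS, the share ratio of FBS to CSS 2.22, and 81.0% of CSS peaks had a partner in DHT, as in FBS. With the wider limits, 500 kb more on each side, the FBS density ratio was 2.83. Against the rest of the arm, the share ratio of FBS to CSS was 2.09. Thinned to 1 peak per 10 kb, the share of list ratio of FBS to CSS in the block was 1.03 (0.709 to 1.53).

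With an overlap of 50% of both peaks, the partner shares were 20% for CSS in FBS, 30.2% for DHT in FBS and 6.67% for FBS in either. With summits within 100 bp they were 38% for CSS in DHT, 44.2% for DHT in CSS, 20% for CSS in FBS, 32.6% for DHT in FBS and 8.89% for FBS in either. Windows of 250 kb gave at most 3.6 CSS and 3.2 DHT peaks per 100 kb. With 10 kb added on each side, the FGFR1 span held 1 CSS peak.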
